A study of Mus musculus with 10 samples.

Results

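CD25+ CD4+ T cells from the spleens of mice given dendritic cells were compared with CD4+ T cells from mice given the same injections. The comparison used 5 of the 10 arrays of the study, 3 of CD25+ cells and 2 of CD4+ cells, chosen by their sample labels, and every gene with an unambiguous probe set was followed. All animals were of the inbred strain DBA/1, with no genetic alteration named. The injected mice had received 500000 immature dendritic cells intraperitoneally on days -7, -5 and -3, counted from the removal of the spleen. The remaining arrays held CD49b+ CD4+ cells of injected mice (n = 3) and CD4+ cells of naive mice (n = 2), and they served as further comparators. Cells from several mice had been pooled before sorting, and no label says whether replicates came from different pools, so p-values measure the spread between these arrays, which may be technical. The labels also leave unsaid whether CD25+ cells had been gated out of the CD4+ sort. Neither the age nor the sex of the animals is used here.

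CD25 is the alpha chain of the interleukin 2 receptor, encoded by Il2ra, which joins a beta chain and a common gamma chain into the high-affinity receptor. In the spleen of a mouse without inflammation, CD4+ T cells that carry CD25 are mostly regulatory T cells, which depend on the transcription factor Foxp3, take up interleukin 2 from other cells and restrain them through surface molecules such as CTLA-4. Activated conventional T cells also acquire CD25, so CD25 alone does not define a regulatory T cell. Effector-type regulatory T cells divide, lose the genes of resting T cells and take on the homing receptors of inflamed tissue.

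Values are log2 expression levels as deposited, on which 1 unit means 2-fold, and every difference given is CD25+ minus CD4+ of injected mice with its standard error from a limma fit over all arrays, unless another comparison is named. A gene was called higher or lower at a Benjamini-Hochberg adjusted p under 0.05 over 11037 genes, and a gene above the array median in fewer than 2 of the 10 arrays counted as dim and was not tested. The median level of an array was 4.80 and 4.81 in the CD4+ arrays and 4.64 to 4.65 in the CD25+ arrays, and the median of 23 nonspecific control probe sets was 3.37 and 3.41 against 3.20 to 3.23. The poly-A spikes, control RNAs added during labelling, averaged 6.93 and 5.62 in the CD4+ arrays and 6.81, 6.98 and 8.51 in the CD25+ arrays. The 3' minus 5' difference of the Gapdh control probe sets, a sign of RNA quality, was 0.26 and 0.13 against 0.58, 0.37 and 0.60. The CD25+ arrays therefore had a lower floor and a steeper 3' to 5' slope than the CD4+ arrays, replicate 3 of the CD25+ cells had the highest spike level of the 5, and the part of these features in the results was not tested. The number of arrays limits the precision of every value.

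The markers of regulatory T cells were present in the CD25+ sort. Il2ra stood at 4.18 and 4.16 in the CD4+ arrays, below their medians, and at 9.09, 8.89 and 8.51 in the CD25+ arrays. Its difference of 4.66 ± 0.14 checks the sort gate and is no result. Foxp3, which directs the regulatory T cell programme, was at 4.57 and 4.70 in CD4+ cells and at 8.36, 8.34 and 8.06 in CD25+ cells, a difference of 3.61 ± 0.12 (adjusted p = 1.97e-07). Ctla4 was at 8.70 and 9.25 in CD4+ cells and at 11.64, 11.44 and 10.62 in CD25+ cells, a difference of 2.25 ± 0.35 (adjusted p = 8.83e-04). Both transcripts were higher in each CD25+ array than in either CD4+ array, which held in that direction for 31% of all genes tested and in the opposite direction for 27.9%. The T cell markers Cd4 and Cd3e gave differences of 0.04 ± 0.10 and -0.02 ± 0.12, not called, and the sign of each changed with the scaling or with 1 array left out. A dimmer probe set of Cd4 was called lower at -0.45 (adjusted p = 0.00454 by limma over every probe set). In sorted bulk cells, a lower level can mean fewer cells that express a gene or less RNA of it per cell, and these cannot be told apart.

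Of the genes tested, 2297 (20.8%) were higher and 1964 (17.8%) lower in CD25+ cells, so that 38.6% were called in all. With each array centred on its median, which moved the median difference of all genes from 0.02 to 0.12, the split was 3263 higher and 1403 lower, and the share of calls that were higher went from 53.9% to 69.9%. The large differences lay mostly on the higher side. At least 2-fold differences were called for 561 genes higher (5.08%) and 150 lower (1.36%), and at least 4-fold differences for 146 and 22. Of the 561 genes, 159 (28.3%) had a CD4+ mean below the array median, Foxp3, Sdc4, Kcnk1, Ifi202b, Maf, Tbx21 and Gzmb among them, so that their differences start from a dim CD4+ value. Lower calls were concentrated among dim genes. When the genes were cut by brightness into 4 sets of equal size, 339 were higher and 996 lower in the dimmest set, and 642 and 189 in the brightest.

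**Figure D1:**
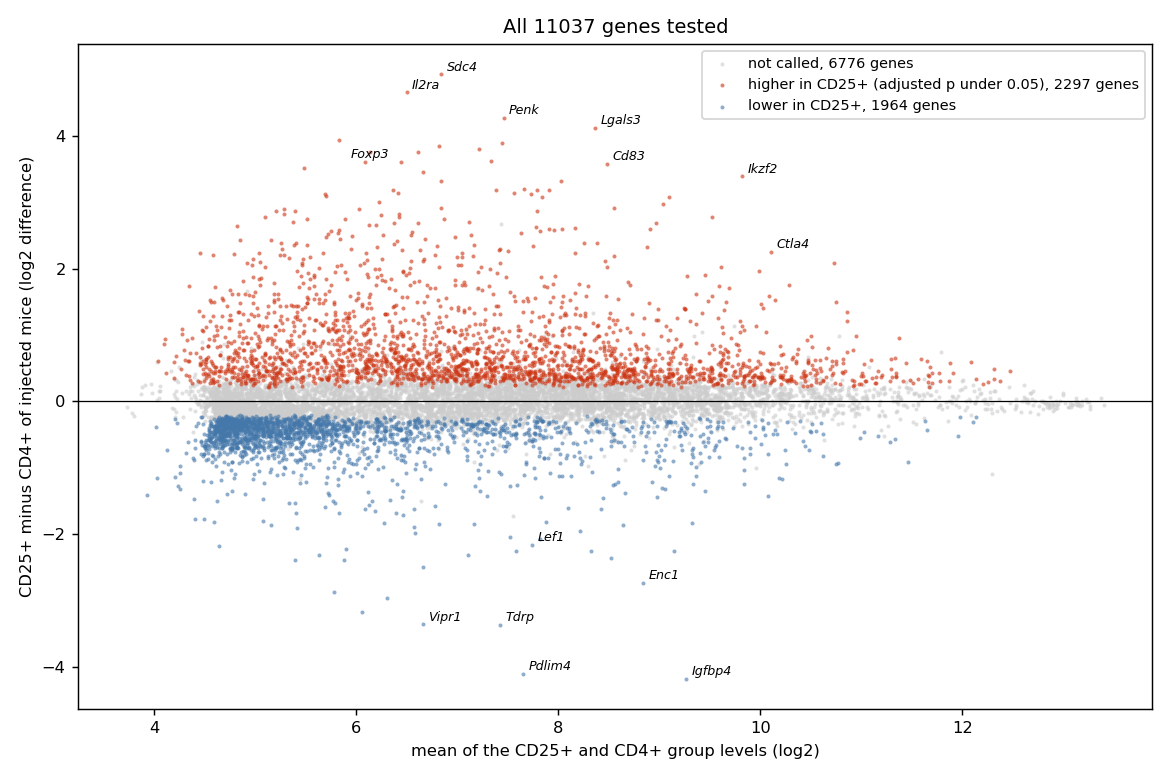
Each point is 1 of the 11037 genes tested. The horizontal axis is the mean of the CD25+ and CD4+ group levels (log2) and the vertical axis the difference of CD25+ from CD4+ cells of injected mice (log2); red points were called higher (2297), blue points lower (1964), and 14 genes are named. Differences above 2 were more numerous than differences below -2, and the blue points crowd at low levels.

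The genes furthest above CD4+ cells had varied functions. Sdc4, the heparan sulfate proteoglycan syndecan 4, stood at 4.38 and 4.39 in CD4+ cells, below the array medians, and at 9.51, 9.82 and 8.60 in CD25+ cells (4.93 ± 0.31, adjusted p = 3.36e-06). Penk, which encodes the precursor of the enkephalin opioid peptides, was at 5.22 and 5.43 against 9.80, 9.57 and 9.41 (4.27 ± 0.18, adjusted p = 4.5e-07). Lgals3, the lectin galectin 3, was at 6.06 and 6.56 against 10.44, 10.51 and 10.33 (4.12 ± 0.17, adjusted p = 4.47e-07). Sdc4 was lowest in CD25+ replicate 3, while Penk and Lgals3 varied less between the CD25+ arrays. Bmp2, a secreted growth factor of the TGF-beta superfamily, was below the array median in CD4+ cells, at 3.84 and 3.88, and reached 8.41, 8.22 and 6.76 in CD25+ cells (3.94 ± 0.39, adjusted p = 5.76e-05). Coro2a, an actin-associated coronin, differed by 3.89 ± 0.14, and Serpinb1a, an inhibitor of neutrophil-type serine proteases, by 3.75 ± 0.19. Cd83, a surface molecule of activated lymphocytes and dendritic cells, was at 6.30 and 7.08 against 10.22, 10.46 and 10.12 (3.58 ± 0.29, adjusted p = 1.58e-05). The potassium channel gene Kcnk1 differed by 3.61 ± 0.23, the interferon-inducible Ifi202b by 3.51 ± 0.30 and Tiam1, an exchange factor for the GTPase Rac, by 3.32 ± 0.15. The other probe sets of Tiam1 were dim.

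Gem and Trgv1 completed the 20 genes with the highest differences together with members of the lists described below. Gem, a small GTPase induced on activation, varied widely, at 4.50 and 5.86 against 8.90, 9.58 and 7.02. Its difference of 3.32 ± 0.87 (adjusted p = 0.0142) became 2.64 (adjusted p = 0.111) without CD4+ replicate 1. Trgv1, a variable segment of the T cell receptor gamma chain, was at 6.12 and 6.02 against 9.15, 9.32 and 9.32 (3.20 ± 0.13, adjusted p = 4.47e-07). Of the gamma-delta T cell markers listed, Sox13 and Blk had a tested probe set, at differences of -0.27 and 0.05, and neither was called. The part of gamma-delta T cells in the Trgv1 level was not tested beyond these values.

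Of 26 tested genes of the regulatory T cell signature, a list of genes known from regulatory T cells that includes the sort gene Il2ra, 24 were higher, 1 was lower and 1 was not called, beside 20.8% and 17.8% of all genes. The median difference was 2.87, against 0.02 over all genes tested. The same 20.8% and 17.8% are the shares to set beside every list count against CD4+ cells below. Among transcription factors, Ikzf2, the Ikaros-family factor Helios, was at 8.04 and 8.21 in CD4+ cells and at 11.71, 11.39 and 11.45 in CD25+ cells (3.39 ± 0.16, adjusted p = 7.02e-07). Ikzf4, the related factor Eos, was at 6.11 and 6.48 against 9.53, 9.23 and 9.38 (3.08 ± 0.12, adjusted p = 4.35e-07), while its other tested probe set, dimmer, was called at -0.22. Plagl1, a zinc finger factor of growth arrest, was near the array median in CD4+ cells, at 4.81 and 4.74, and at 8.05, 8.38 and 7.43 in CD25+ cells (3.18 ± 0.23, adjusted p = 7.83e-06). All 3 factors were separated between the groups without overlap, as were 31% of all genes tested in that direction.

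Several surface members of the signature were higher, by 1.07 to 3.85 on the log2 scale. Itgae, the CD103 chain of the integrin that binds epithelial E-cadherin, was below the array median in CD4+ cells, at 4.19 and 4.33, and at 8.15, 8.17 and 7.72 in CD25+ cells (3.75 ± 0.17, adjusted p = 6.18e-07). Klrg1, a lectin-like receptor of terminally differentiated lymphocytes, was at 4.79 and 5.01 against 8.72, 8.98 and 8.55 (3.85 ± 0.14, adjusted p = 2.71e-07). Nrp1, the semaphorin receptor neuropilin 1, was already at 8.03 and 8.25 in CD4+ cells and reached 11.10, 10.86 and 10.78 (2.77 ± 0.14, adjusted p = 8.81e-07). These receptors thus started from different levels in CD4+ cells and were each higher by over 2 log2 units. Izumo1r, the folate receptor 4, was at 6.71 and 7.09 against 8.48, 8.46 and 8.30 (1.51 ± 0.12). Icos, a CD28-family costimulatory receptor, differed by 1.07 ± 0.08 and Capg, an actin-capping protein, by 2.19 ± 0.19. Gpm6b was the lower member (-0.47 ± 0.12, adjusted p = 0.0128). Rgs1, a regulator of G protein signalling, was at 9.81 and 10.76 against 11.38, 11.76 and 10.66, with overlapping groups and no call (adjusted p = 0.124). An alternative limma fit with the replicate number as a block called Rgs1 higher (1.35, adjusted p = 0.00177). CD25+ and CD4+ arrays were not taken as paired, so blocked calls against CD4+ cells are alternatives only. Ccr8 was dim and not tested.

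**Figure D2:**
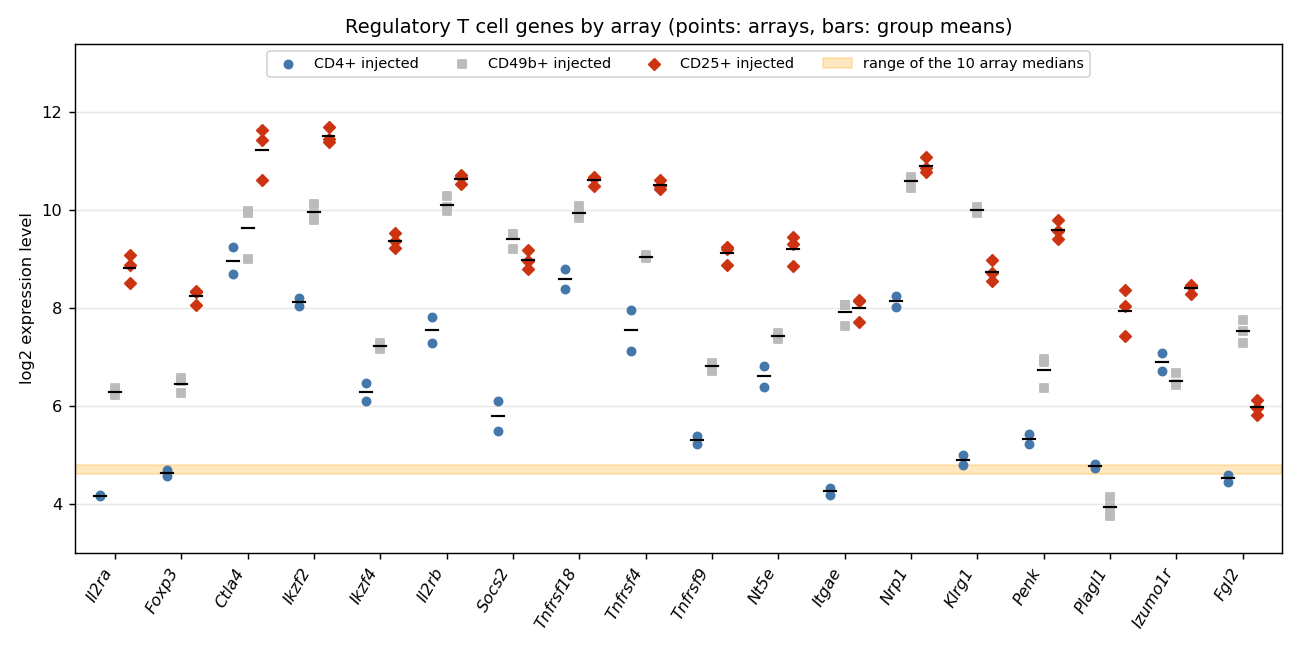
Points are arrays and bars group means for 18 genes of the regulatory T cell signature; the vertical axis is the log2 expression level and the shaded band spans the medians of the 10 arrays. For Foxp3 the CD25+ arrays lie between 8.06 and 8.36, the CD49b+ arrays between 6.26 and 6.58 and the 2 CD4+ arrays of injected mice lie at 4.57 and 4.70.

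Il2rb, the beta chain of the interleukin 2 receptor, was higher, as were the feedback inhibitors Socs2 and Cish, while Socs3 was not called and Socs1 was dim. Of 17 tested genes of the interleukin 2 receptor and common gamma chain pathway, 7 were higher, the sort gene Il2ra among them, and 3 lower. Over all genes tested 20.8% were higher and 17.8% lower, so the lower count was close to that share. The list median was 0.37. Il2rb, which also serves the interleukin 15 receptor, was at 7.30 and 7.83 in CD4+ cells and at 10.72, 10.53 and 10.68 in CD25+ cells (3.08 ± 0.15, adjusted p = 9.15e-07). Il15ra, the interleukin 15 receptor alpha chain, differed by 1.16 ± 0.12, though its other probe set gave -0.07 and was not called. Socs2, a suppressor of cytokine signalling induced by STAT5, was at 5.49 and 6.10 against 8.96, 8.80 and 9.19 (3.18 ± 0.19, adjusted p = 2.56e-06), and Cish, of the same family, was at 8.16 in both CD4+ arrays against 9.64, 9.88 and 9.41 (1.48 ± 0.15, adjusted p = 6.49e-05). The signal transducers differed less: Stat5a by 0.58 ± 0.11 (adjusted p = 0.00216) and Jak3 by 0.37 ± 0.12 (adjusted p = 0.0402), while Stat5b, at 0.25 ± 0.10, was not called. Il2 itself lay below the array median in all 5 arrays, between 3.94 and 4.18. The receptors for interleukin 4 and interleukin 9 were lower, Il4ra at -0.73 ± 0.13 and Il9r, below the array median, at -0.33 ± 0.08.

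TNF receptors and their ligands, which costimulate T cells, were mostly higher. Of 17 tested, 12 were higher and 1 lower, with a median of 1.07, beside 20.8% and 17.8% of all genes. Tnfrsf9, the receptor 4-1BB, was at 5.23 and 5.39 in CD4+ cells and at 9.22, 9.26 and 8.88 in CD25+ cells (3.81 ± 0.12, adjusted p = 1.97e-07). Tnfrsf4, the receptor OX40, was at 7.13 and 7.97 against 10.63, 10.50 and 10.44 (2.98 ± 0.19, adjusted p = 4.24e-06), and Tnfrsf1b, TNF receptor 2, at 6.29 and 6.45 against 8.84, 8.45 and 8.60 (2.26 ± 0.14, adjusted p = 2.59e-06). Tnfrsf18, the receptor GITR, was at 8.39 and 8.80 against 10.66, 10.69 and 10.50 (2.02 ± 0.13, adjusted p = 4.24e-06). These 4 receptors were higher in every CD25+ array than in either CD4+ array, as were 31% of all genes tested. Among ligands, Tnfsf11, which encodes RANKL, differed by 2.17 ± 0.15, and Lta, lymphotoxin alpha, by 1.89 ± 0.18. Tnfsf8, the ligand of CD30, was lower (-0.78 ± 0.17, adjusted p = 0.00479).

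The NF-kappaB pathway, through which these receptors signal, gave 8 higher and 1 lower of 17 tested, beside 20.8% and 17.8% of all genes. The list median was 0.69. Bcl3, an atypical nuclear inhibitor protein of the pathway, was at 5.67 and 5.85 in CD4+ cells and at 7.20, 7.14 and 7.18 in CD25+ cells (1.41 ± 0.08, adjusted p = 2.55e-06). Nfkb2, a subunit of the noncanonical pathway, differed by 0.97 ± 0.14 (adjusted p = 4.84e-04). The count rested in part on 1 array, since only 4 members were higher without CD4+ replicate 1. Relb was then at 0.49 (adjusted p = 0.0722) and Traf1 at 1.03 (adjusted p = 0.0868), against 0.77 and 1.21 with all arrays. Rel and Nfkbia, which respond early to activation, were not called (0.77 ± 0.58 and 0.74 ± 0.40), and both were lower in CD25+ replicate 3 than in the other CD25+ arrays. Both were called higher in the alternative fit with the replicate number as a block, at 1.21 and 1.02 (adjusted p = 0.00112 and 0.00732). CD25+ and CD4+ arrays were not taken as paired, so these genes count as not called. Nfkbiz and Birc2, at 0.66 each, were likewise called higher only with the block, and Map3k14 (-0.34) and Ikbke (-0.25) lower. The block also added calls in other lists, H2-Ab1 (1.02), Ifit1 (1.49) and Nr4a2 (2.47) among them.

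CD28-family and checkpoint receptors were split between higher and similar. Of 16 tested, 9 were higher and 1 lower, with a median of 0.67, beside 20.8% and 17.8% of all genes. Cd81, a tetraspanin counted on this list, was at 6.62 and 6.72 in CD4+ cells and at 9.29, 9.40 and 9.08 in CD25+ cells (2.58 ± 0.12, adjusted p = 6.18e-07). Pdcd1, the inhibitory receptor PD-1, was at 5.45 and 5.36 against 7.04, 6.61 and 6.79 (1.41 ± 0.14, adjusted p = 6.77e-05), and Cd200, a ligand of an inhibitory myeloid receptor, at 5.47 and 5.20 against 6.74, 6.71 and 6.89 (1.44 ± 0.12, adjusted p = 1.62e-05). Lag3, an inhibitory receptor that binds MHC class II, was between 4.92 and 5.14 in all 5 arrays (-0.06 ± 0.09, adjusted p = 0.658). Vsir, the inhibitory receptor VISTA, was lower (-0.71 ± 0.12, adjusted p = 0.00111). Cd28 itself, at -0.22 ± 0.18, was not called.

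Molecules through which regulatory T cells act on other cells were higher for 11 of 14 tested and lower for 1, with a median of 1.39. Ebi3, a subunit shared by cytokines of the interleukin 12 family, was at 4.73 and 5.35 in CD4+ cells and at 7.57, 8.01 and 7.59 in CD25+ cells (2.68 ± 0.21, adjusted p = 1.38e-05). Il12a, its partner in one of them, was dim and not tested. Nt5e, the ectoenzyme CD73 that makes adenosine, was at 6.82 and 6.40 against 9.45, 8.87 and 9.31 (2.60 ± 0.18, adjusted p = 7.66e-06), while its other tested probe set gave 0.33 and was not called. Entpd1, the ectoenzyme CD39 that acts before it, lay below the array median in CD4+ cells and differed by 1.14 ± 0.13 (adjusted p = 1.48e-04). The other tested probe set of Entpd1 gave 0.27 and was not called. Il10, the anti-inflammatory cytokine interleukin 10, was at 4.70 and 4.90 against 6.46, 7.03 and 5.74 (1.61 ± 0.33, adjusted p = 0.00379). Gzmb, the protease granzyme B, was at 4.22 and 4.68 against 6.31, 6.73 and 6.85 (2.18 ± 0.21, adjusted p = 4.79e-05). Both cytotoxic and cytokine members were therefore among the higher genes, with Il10 lowest in CD25+ replicate 3. Il1r2, the decoy receptor for interleukin 1, differed by 2.14 ± 0.24. Prf1, the pore-forming protein perforin, was lower (-1.11 ± 0.11, adjusted p = 5.15e-05), though its other probe set gave -0.08 and was not called. Tgfb1 lay below the array median in 4 of the 5 arrays and was not called (-0.02 ± 0.09, adjusted p = 0.883).

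Transcription factors of effector lineages were higher for 15 of 18 tested and lower for 1, with a median of 1.30. Maf, which drives Il10 and follicular helper genes, was at 4.43 and 4.61 in CD4+ cells and at 7.13, 7.41 and 7.26 in CD25+ cells (2.75 ± 0.10, adjusted p = 2.66e-07). Rora, a retinoid-related orphan receptor, was at 6.10 and 5.93 against 8.28, 7.88 and 8.04 (2.06 ± 0.16, adjusted p = 1.25e-05), and Prdm1, the factor Blimp-1 of effector regulatory T cells, at 5.0 and 4.98 against 6.91, 6.83 and 6.76 (1.85 ± 0.08, adjusted p = 6.42e-07). Gata3, the T helper 2 factor, differed by 1.25 ± 0.14 and Irf4, a factor induced by T cell receptor signals, by 1.57 ± 0.24. The other tested probe set of Irf4 gave -0.22 and was not called. Ahr, the aryl hydrocarbon receptor, differed by 2.68 ± 0.19, while its other tested probe set gave -0.22 and was not called. Tbx21, the T helper 1 factor T-bet, was at 4.50 and 4.53 against 5.95, 5.83 and 7.43 (1.89 ± 0.41, adjusted p = 0.00551), so that CD25+ replicate 3 stood above the other CD25+ arrays. Nfil3 and Bhlhe40 were at 1.76 and 1.80 with all arrays but at 1.22 (adjusted p = 0.183) and 1.15 (adjusted p = 0.169) without CD4+ replicate 1. Eomes, the T-box factor of cytotoxic cells, was lower (-0.71 ± 0.10, adjusted p = 4.11e-04).

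Receptors of several helper lineages were higher, while of the cytokine genes described here Il13 was higher, Il17a lower, and Ifng and Il4 were not called. Over all genes tested 20.8% were higher and 17.8% lower. Of T helper 1 genes 6 of 11 tested were higher and the other 5 were not called. Among the higher ones were the interleukin 18 receptor chains Il18rap (2.05 ± 0.12) and Il18r1 (1.89 ± 0.08). Ifng was not called and was at 0.37 ± 0.53 (adjusted p = 0.616). Of T helper 17 genes 7 of 10 were higher and 2 lower, the lower count close to the share of all genes, with a median of 2.30. Tmem176a, a membrane protein of that lineage and of myeloid cells, was at 5.53 in both CD4+ arrays against 9.16, 9.56 and 8.73 (3.62 ± 0.19, adjusted p = 1.51e-06), and its neighbour Tmem176b differed by 2.59 ± 0.22. Il1r1, the signalling receptor for interleukin 1, differed by 2.54 ± 0.18. The cytokine gene Il17a was lower, at 5.30 and 5.67 against 4.93, 5.22 and 5.01 (-0.43 ± 0.13, adjusted p = 0.0278), and so was Ccl20 (-0.41 ± 0.08, adjusted p = 0.00358). With each array centred on its median, or with only the 5 arrays compared, 1 of these 2 lost its call. Of T helper 2 genes 4 of 8 were higher and 1 lower, with Il13 at 4.43 and 4.42 against 5.0, 5.06 and 5.10 (0.63 ± 0.09, adjusted p = 5.46e-04) and Il4 at 0.22 ± 0.30 (adjusted p = 0.605). Of T follicular helper genes 4 of 8 were higher, with Bcl6, their defining factor, at 0.49 ± 0.18 (adjusted p = 0.0522). The alternative fit with the replicate number as a block called Bcl6 higher (0.63, adjusted p = 0.00283), though CD25+ and CD4+ arrays were not taken as paired.

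Homing and adhesion receptors were more often higher than lower, beside 20.8% higher and 17.8% lower of all genes tested. Of 12 tested genes on the chemokine receptor list 6 were higher and 3 lower, with a median of 0.91. The list also holds Gpr183, S1pr1 and S1pr4, which are not chemokine receptors, and these were the 3 lower members. Ccr6, the receptor for CCL20, was at 7.07 and 7.12 in CD4+ cells and at 10.35, 9.80 and 9.89 in CD25+ cells (2.91 ± 0.17, adjusted p = 2.56e-06). Cxcr5, the receptor that leads into B cell follicles, was at 4.98 and 5.55 against 7.22, 7.27 and 6.96 (1.88 ± 0.21, adjusted p = 1.09e-04). The 4 other higher receptors had their highest value in CD25+ replicate 3, as Tbx21 did. Cxcr6 was at 6.12 and 6.81 against 8.75, 8.42 and 10.11 (2.62 ± 0.43, adjusted p = 0.00111), Cxcr3 at 7.29 and 7.69 against 8.69, 8.97 and 9.56 (1.59 ± 0.22, adjusted p = 4.84e-04), and Ccr9, of gut-homing cells, at 6.11 and 6.29 against 7.55, 7.61 and 8.70 (1.76 ± 0.31, adjusted p = 0.00188). Ccr2, the receptor for monocyte chemoattractants, was at 5.38 and 5.74 against 6.72, 6.70 and 8.25 (1.67 ± 0.41, adjusted p = 0.0105), and at 1.49 (adjusted p = 0.074) without CD4+ replicate 1. The receptors for egress and follicle-edge positioning were lower, S1pr1 at -1.31 ± 0.25 (adjusted p = 0.00307) and Gpr183 at -1.32 ± 0.31 (adjusted p = 0.00759). Of 16 integrin and adhesion genes 9 were higher and 3 lower, the lower count being close to the 17.8% of all genes. Icam1 differed by 2.19 ± 0.16, Cd44, a marker of antigen-experienced T cells, by 1.51 ± 0.15 and Itgb1, the integrin beta 1 chain, by 1.41 ± 0.17. Itga2, the CD49b chain, was at 5.80 and 5.85 against 5.45, 5.53 and 5.43 (-0.36 ± 0.11, adjusted p = 0.0247), a call that was lost with centred arrays and on leaving out any 1 of 4 of the 5 arrays.

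Genes of naive and resting T cells formed the main lower group. Of 23 tested, 14 were lower and 1 higher, with a median of -0.66. Igfbp4, which binds insulin-like growth factors and marks naive T cells, was at 11.40 and 11.32 in CD4+ cells and at 6.93, 7.19 and 7.42 in CD25+ cells (-4.18 ± 0.15, adjusted p = 2.08e-07), an 18.1-fold difference. Lef1, a Wnt pathway factor of naive T cells, was at 9.11 and 8.53 against 6.80, 6.12 and 7.06 (-2.16 ± 0.29, adjusted p = 3.8e-04). Satb1, a chromatin organiser, was at 11.92 in both CD4+ arrays against 11.15, 10.69 and 11.18 (-0.91 ± 0.14, adjusted p = 7.91e-04). Actn1, an actin crosslinker, differed by -1.43 ± 0.10, Cd55, which limits complement, by -1.44 ± 0.11 and Foxp1, a factor of quiescence, by -0.74 ± 0.17. Of the other Foxp1 probe sets, those at -0.89 and -0.78 were called lower, while those at -0.38, -0.13, -0.14 and -0.39 were not called. Klf2, a further quiescence factor, and Bach2, a repressor of effector genes, were not called, at -0.52 ± 0.23 and -0.47 ± 0.28. Averaging all probe sets of Bach2 gave -0.51 (adjusted p = 0.0264). Id3, an inhibitor of E protein transcription factors, was the higher member (0.65 ± 0.13, adjusted p = 0.00364).

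Other genes far below CD4+ cells came from several functions. Pdlim4, a cytoskeletal PDZ and LIM protein, was at 9.44 and 9.98 in CD4+ cells and at 5.06, 5.83 and 5.91 in CD25+ cells (-4.11 ± 0.24, adjusted p = 2.27e-06). Tdrp, a protein of testis development, was at 9.17 and 9.05 against 5.69, 5.51 and 6.03 (-3.37 ± 0.16), and Vipr1, the receptor for vasoactive intestinal peptide, at 8.31 and 8.38 against 4.88, 4.96 and 5.11 (-3.36 ± 0.15). Their adjusted p was 7.02e-07 and 6.18e-07. Enc1, an actin-binding kelch protein, differed by -2.74 ± 0.20, Adh1, an alcohol dehydrogenase, by -2.50 ± 0.12, Ntrk3, a neurotrophin receptor, by -2.40 ± 0.12, and App, the amyloid precursor protein, by -2.32 ± 0.11. Tgfbr3, the TGF-beta co-receptor betaglycan, was at 9.55 and 9.34 against 7.24, 7.08 and 7.29 (-2.25 ± 0.13). Arhgap29, Hs3st3b1, Snn, Ccnd1 and Mmp12 lay below the array median in CD25+ cells, so that their differences of -3.17, -2.88, -2.39, -2.32 and -2.18 were measured at the dim end. For Vipr1, Arhgap29 and Tgfbr3 the other probe sets were dim and gave -0.39, -0.29 and -0.63.

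**Figure D3:**
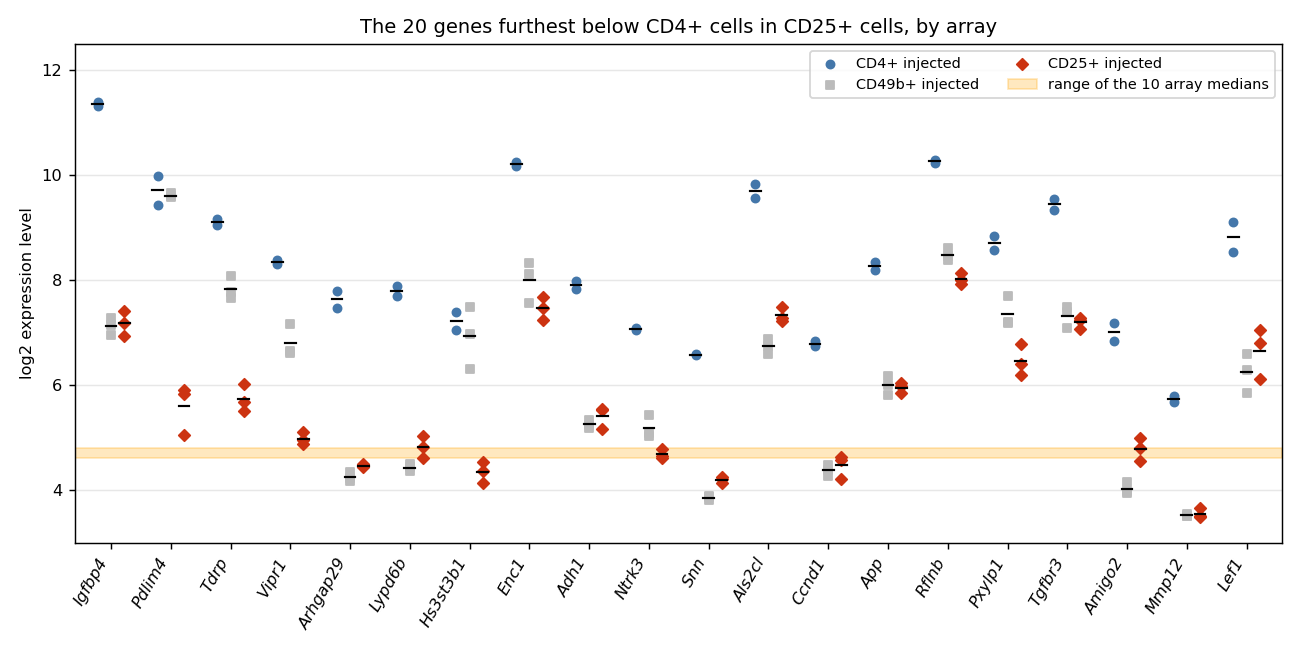
Points are arrays and bars group means for the 20 genes with the lowest differences; the vertical axis is the log2 expression level and the shaded band spans the medians of the 10 arrays. Igfbp4 lies at 11.40 and 11.32 in the CD4+ arrays of injected mice, while its CD25+ values run from 6.93 to 7.42, and Pdlim4 and Hs3st3b1 are low in CD25+ but not in CD49b+ arrays.

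Mitosis and DNA replication genes were higher almost throughout. Of 30 tested mitosis genes 26 were higher and the other 4 were not called, with a median of 1.58. Of 27 replication genes 25 were higher and the other 2 were not called, with a median of 1.22. Many mitosis genes share 2 short promoter elements, the CCAAT box bound by NF-Y and the cell cycle genes homology region TTTGAA bound by the DREAM complex, which keeps them silent in resting cells. The promoters of 4 called mitosis genes are shown, picked because they hold both elements in the bases shown and have 1 RefSeq window. They had the highest differences among such genes, so they do not represent the list. Each is the 150 bases before the start in the RefSeq annotation of GRCm38.p6, 5′ to 3′ on the strand of the gene. Both elements, as such or as the reverse complement, are in capitals. Ube2c lies at chr2:164769779-164769928 on the plus strand, and Mki67 at chr7:135716380-135716529, Cdk1 at chr10:69352913-69353062 and Top2a at chr11:99024190-99024339 on the minus strand.
Ube2c: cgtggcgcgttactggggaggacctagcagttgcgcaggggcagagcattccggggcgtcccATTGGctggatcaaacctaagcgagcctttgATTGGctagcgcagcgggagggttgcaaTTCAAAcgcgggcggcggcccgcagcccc
Mki67: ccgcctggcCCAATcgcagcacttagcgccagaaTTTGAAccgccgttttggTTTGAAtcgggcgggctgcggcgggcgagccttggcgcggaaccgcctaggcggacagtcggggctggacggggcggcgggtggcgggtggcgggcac
Cdk1: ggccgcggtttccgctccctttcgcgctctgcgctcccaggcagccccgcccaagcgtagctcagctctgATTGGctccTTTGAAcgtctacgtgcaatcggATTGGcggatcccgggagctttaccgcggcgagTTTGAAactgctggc
Top2a: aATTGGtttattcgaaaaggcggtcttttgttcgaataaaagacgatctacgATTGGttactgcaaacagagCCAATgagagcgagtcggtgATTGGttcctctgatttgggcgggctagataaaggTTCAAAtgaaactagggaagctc

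In these windows Ube2c held CCAAT 88 and 57 bases and TTTGAA 29 bases before the start, Mki67 held CCAAT at 141 and TTTGAA at 116 and 98, and Cdk1 held CCAAT at 80 and 48 and TTTGAA at 71 and 15. Top2a held 4 CCAAT boxes and TTTGAA at 23. Over the RefSeq windows of 300 bases, 250 before and 50 after the start, read on both strands, both elements stood together in 65.2% of the windows of the mitosis genes called higher (15 of 23 windows, 22 genes matched) and in 6.95% of all 32851 windows. CCAAT, with or without the other element, was in 73.9% against 37.4%, and TTTGAA, counted likewise, in 73.9% against 17.9%. In the 26 windows of 21 replication genes called higher, CCAAT was in 57.7%, TTTGAA in 11.5% and both in 7.69%. Windows of 1 gene overlap where it has several starts, and a match describes the letters alone.

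The CD25+ arrays differed among themselves in the cell cycle genes. Ube2c, the ubiquitin-conjugating enzyme of the anaphase-promoting complex, was at 4.71 and 5.18 in CD4+ cells and at 7.34, 8.69 and 9.15 in CD25+ cells (3.45 ± 0.49, adjusted p = 5.46e-04). Mki67, the Ki-67 antigen of dividing cells, was at 6.15 and 6.48 against 9.07, 9.49 and 9.95 (3.19 ± 0.26, adjusted p = 1.6e-05). Cdk1, the mitotic kinase, was at 4.66 and 5.36 against 7.02, 8.09 and 8.42 (2.83 ± 0.41, adjusted p = 6e-04), and Top2a, the topoisomerase of dividing cells, at 6.16 and 6.57 against 8.26, 8.99 and 9.45 (2.54 ± 0.32, adjusted p = 2.62e-04). In all 4 genes replicate 1 was the lowest of the CD25+ arrays. It was still above both CD4+ arrays, a separation found for 31% of all genes tested. The list median per array was 1.06, 1.79 and 1.90 for replicates 1 to 3. Among replication genes, Uhrf1, which maintains DNA methylation, was at 5.24 and 5.52 against 7.91, 8.37 and 8.64 (2.92 ± 0.21, adjusted p = 7.81e-06), and Rrm2, a subunit of ribonucleotide reductase, at 6.11 and 6.61 against 8.66, 9.14 and 9.87 (2.87 ± 0.34, adjusted p = 1.89e-04). Pcna and Mcm4, bright in CD4+ cells already, differed by 0.43 ± 0.12 and 0.39 ± 0.10. Of 20 genes of entry into the cycle 9 were higher and 3 lower, and 5 were higher without CD4+ replicate 1. The D-type cyclins did not follow the mitosis genes: Ccnd1 and Ccnd3 were lower (-2.32 ± 0.14 and -0.59 ± 0.10), and Ccnd2 was at 0.02 ± 0.19.

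Annexins, S100 proteins and galectins, calcium- and glycan-binding proteins of effector and memory T cells, were higher for 11 of 15 tested and not called for the other 4, with a median of 1.03. Besides Lgals3, Anxa1 was at 6.0 and 6.33 in CD4+ cells and at 9.29, 9.55 and 9.02 in CD25+ cells (3.12 ± 0.15, adjusted p = 8.89e-07), and S100a4 at 9.27 and 10.11 against 11.78, 11.88 and 11.69 (2.09 ± 0.20, adjusted p = 4.41e-05). Of 19 survival and cell death genes 10 were higher, beside 20.8% of all genes, and the other 9 were not called, with a median of 0.38. The higher members came from both sides of the balance. The protective Bcl2a1a and Bcl2l1 were at 1.21 ± 0.17 and 1.08 ± 0.09, and the inflammatory caspases Casp4 and Casp1 at 1.72 ± 0.24 and 1.53 ± 0.18. The other probe sets of Bcl2l1 were dim. Bcl2, which protects resting cells, was not called (-0.34 ± 0.15, adjusted p = 0.089). The alternative fit with the replicate number as a block called it lower (-0.29, adjusted p = 0.0328), though these arrays were not taken as paired. Of 15 glycolysis genes 9 were higher and 2 lower, led by the glucose transporter Slc2a3 (1.59 ± 0.10) and hexokinase Hk2 (1.15 ± 0.11), but 4 without CD4+ replicate 1.

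Genes of proximal T cell receptor signalling were partly lower, beside 17.8% lower and 20.8% higher over all genes tested. Of 19 tested genes 8 were lower and 1 higher, with a median of -0.16, and between 4 and 5 were lower when either CD4+ array or CD25+ replicate 2 was left out, with centred arrays, or with only the 5 arrays compared. Themis, which sets the threshold of receptor signalling, was at 9.30 and 9.09 against 6.90, 7.12 and 7.72 (-1.95 ± 0.20, adjusted p = 7.55e-05), and Cd247, the zeta chain, differed by -0.43 ± 0.07 (adjusted p = 0.00117). The adaptor Lcp2 was the higher member (0.54 ± 0.07). Immediate early genes, which respond to handling as well as to receptor signals, gave 1 higher and 1 lower of 18, with a median of -0.02. Nr4a2 (2.47), Egr2 (0.68) and Gadd45b (1.16) were called higher only in the alternative fit with the replicate number as a block. Fos was at 12.08 and 12.90 against 12.89, 13.01 and 12.33, and Egr1 at 10.60 and 11.07 against 10.83, 11.26 and 9.81. Both varied as much within the groups as between them, and CD25+ replicate 3, which had the highest spike level, was lowest for Egr1. Interferon-stimulated genes were 4 higher and 2 lower of 19, cholesterol synthesis genes 6 and 1 of 16, GIMAP genes 3 higher of 8, tetraspanins 7 and 2 of 14, and feedback genes of the DUSP, RGS and Sprouty families 5 and 1 of 17, with medians between 0.04 and 0.37. The higher count of interferon-stimulated genes was close to the 20.8% of all genes. Ifit1 (1.49), Ifit3 (0.81) and Rtp4 (0.64) were called higher only with the replicate block.

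**Figure D4:**
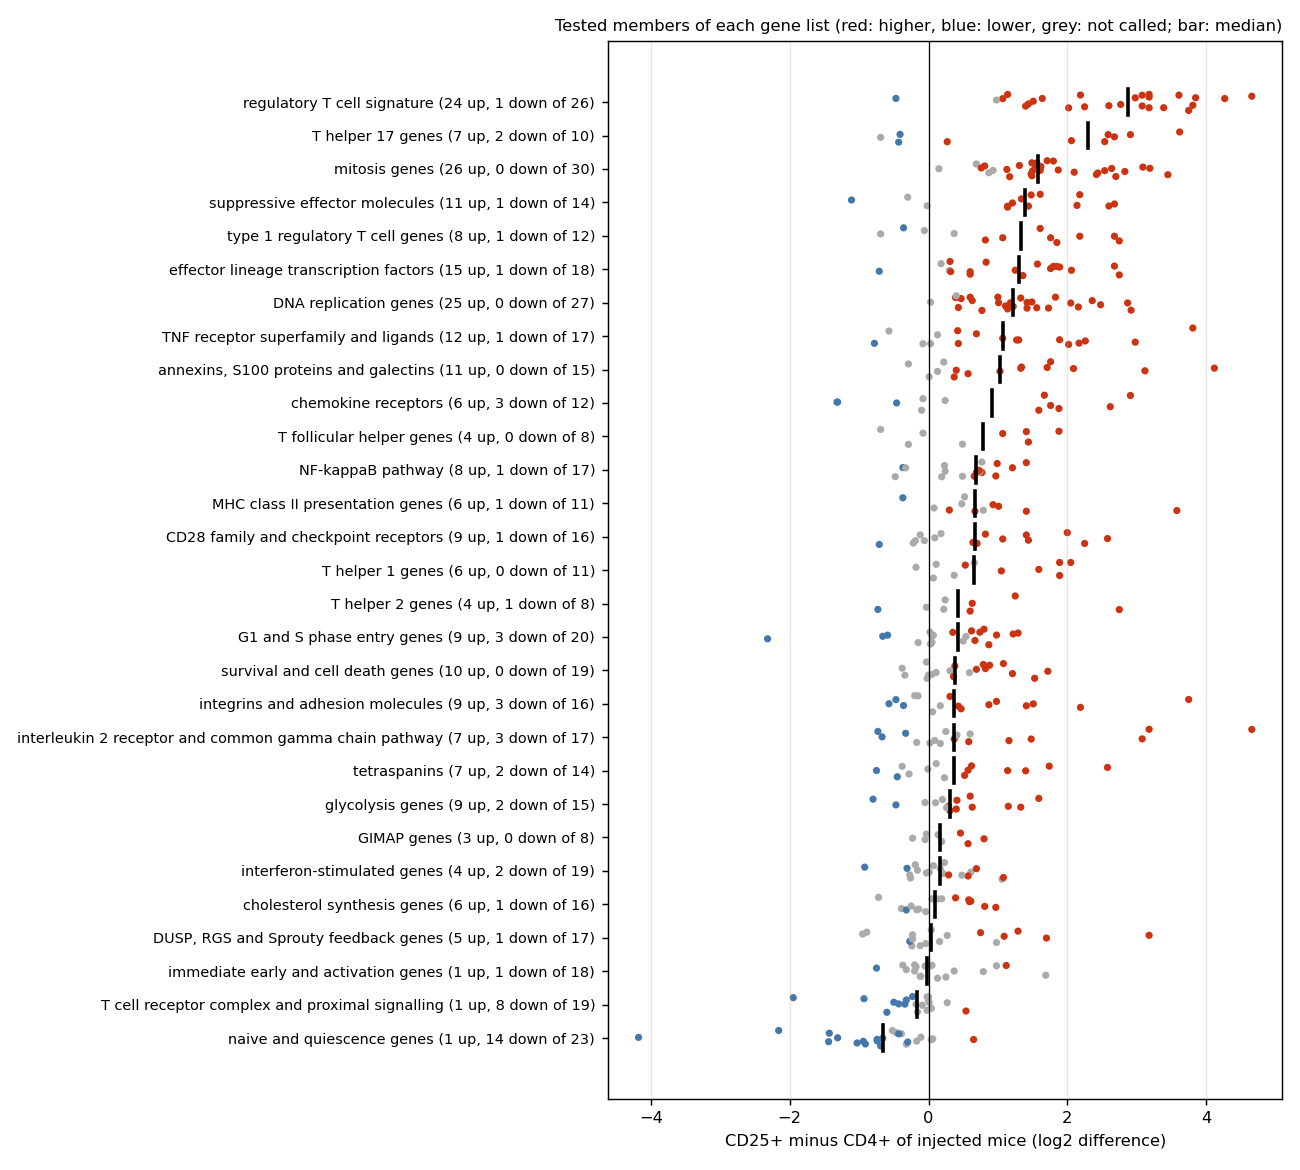
Each point is 1 tested member of a gene list, placed by its difference of CD25+ from CD4+ cells of injected mice (log2, horizontal axis); red was called higher, blue lower and grey not called, and the black bar is the median. Of the lists drawn, which leave out the markers of other cell types, the regulatory T cell signature has the highest median (2.87) and the naive and quiescence genes the lowest (-0.66).

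Genes of MHC class II presentation were higher for 6 of 11 tested and lower for 1, with a median of 0.67, beside 20.8% and 17.8% of all genes. H2-Ab1 (1.02), H2-DMa (0.61) and H2-DMb2 (0.65) were called higher only in the alternative fit with the replicate number as a block. Besides Cd83, H2-Aa, an alpha chain of class II, was at 9.14 and 9.51 in CD4+ cells and at 10.93, 11.02 and 10.25 in CD25+ cells (1.41 ± 0.29, adjusted p = 0.00377). Cd74, the invariant chain, was at 7.18 and 7.52 against 8.42, 8.56 and 7.86 (0.93 ± 0.20, adjusted p = 0.00537), and at 0.76 (adjusted p = 0.0548) without CD4+ replicate 1. H2-Ob differed by 0.67 ± 0.18, and by 0.52 (adjusted p = 0.125) without CD4+ replicate 2 and 0.26 (adjusted p = 0.101) with its probe sets averaged. Naive CD4+ arrays stood higher than CD4+ arrays of injected mice, at 10.96 and 11.09 for H2-Aa and 8.69 and 8.80 for Cd74. Set against both CD4+ groups, 1 of the 11 genes was higher and the median was -0.02. H2-Aa was then at 0.56 (adjusted p = 0.0851) and Cd74 at 0.23 (adjusted p = 0.29).

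Markers of antigen-presenting cells were read beside these genes. Of 3 tested B cell markers 1, Cd79b, was higher (1.53 ± 0.14), and Ms4a1, Pax5, Ighm, Fcer2a, Cr2 and Ebf1 were dim. The summed linear level of the B cell list was 174 to 180 in CD4+ and 193 to 205 in CD25+ arrays. Of 13 myeloid and dendritic cell markers 3 were higher and 5 lower. Batf3, a factor of dendritic and T cells, differed by 2.01 ± 0.20, Fcer1g by 1.90 ± 0.28 and Cybb by 0.60 ± 0.18, while Tyrobp differed by -1.57 ± 0.28 and Itgax, the CD11c chain, by -1.17 ± 0.10. Itgam, Cd14 and Lyz2 were dim, and the summed level was 702 to 754 against 673 to 926. These markers were thus mixed, with Ms4a1, Pax5, Cd14 and Lyz2 dim, Cd79b, Batf3, Fcer1g and Cybb higher, and 5 myeloid and dendritic cell markers lower. The part of antigen-presenting cells in the class II levels was not tested further.

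Markers of cytotoxic lineages were mixed. Of 4 CD8 T cell markers 3 were lower, with Crtam at -1.72 ± 0.16 and Klrd1 at -1.84 ± 0.34, and summed to 466 to 480 in CD4+ and 199 to 229 in CD25+ arrays, while Cd8a was not called and Cd8b1 was dim. Natural killer cell markers were 3 higher and 3 lower of 8, with Klrb1c, Klra8 and Klrc1 dim and sums of 494 to 509 against 461 to 584. Of 6 natural killer T cell markers 5 were higher, which included Il2rb, Cxcr6 and Tbx21 named above, with sums of 592 to 695 against 2630 to 3570, and their defining factor Zbtb16 was not called (0.20 ± 0.17). In CD25+ replicate 3 Zbtb16 was at 5.85 and Klrd1 at 6.21, against 5.30 and 5.19 and 4.86 and 5.02 in the other CD25+ arrays, beside the high Tbx21, Cxcr6 and Ccr2 of that array, and the part of such cells in these values was not tested. Among 2 neutrophil, mast cell and basophil, 4 platelet and 3 erythroid markers tested, limma called 0, and 1 neutrophil, mast cell or basophil marker had an unadjusted p under 0.05.

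CD49b+ cells of injected mice served to ask which differences were larger or smaller in CD25+ cells. Both subsets share the 2 CD4+ arrays as comparator, so their difference was tested directly. Against CD49b+ cells 1371 genes (12.4%) were higher in CD25+ cells and 1926 (17.5%) lower, 29.9% in all, with at least 2-fold differences for 2.58% and 2.51%. Of the 2297 genes above CD4+ cells, 570 (24.8%) were also higher than in CD49b+ cells, 567 (24.7%) were lower than there and 1160 (50.5%) were not called. Of the 1964 genes below CD4+ cells, 259 (13.2%) were lower than in CD49b+ cells as well, 117 (5.96%) higher and 1588 (80.9%) not called. Same-numbered CD25+ and CD49b+ arrays deviated together, though weakly for replicate 1, so values with the replicate number as a block are given where they change a call.

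The regulatory T cell signature was higher than in CD49b+ cells for 16 of 26 genes and lower for 3, with a median of 0.81 against -0.03 over all genes. Foxp3 was at 6.58, 6.52 and 6.26 in CD49b+ cells, 1.80 ± 0.11 below CD25+ cells (adjusted p = 2.97e-06), and Ctla4 was higher in CD25+ cells by 1.58 ± 0.31 (adjusted p = 0.00417). Plagl1 was at 3.75, 3.93 and 4.15 in CD49b+ cells, so that CD25+ cells were higher by 4.01 ± 0.20. Ikzf4, Ikzf2 and Tnfrsf9 were higher by 2.15 ± 0.11, 1.56 ± 0.14 and 2.29 ± 0.11. Bmp2 and Kcnk1 were below the array median in CD49b+ cells and higher in CD25+ cells by 3.99 ± 0.35 and 3.68 ± 0.20. By contrast Itgae (0.09 ± 0.15) and Lgals3 (0.06 ± 0.15) were not called between the subsets, and Klrg1 and Fgl2, a secreted regulator of macrophages, were lower in CD25+ cells (-1.25 ± 0.13 and -1.55 ± 0.15). Socs2 was not called (-0.43 ± 0.17, adjusted p = 0.081) and was lower with the block (adjusted p = 0.0274), and Cish was higher with it (0.36, adjusted p = 0.00521 against 0.0716).

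TNF receptor family genes were higher than in CD49b+ cells for 10 of 17 and not called for the other 7, with a median of 0.67, and Tnf itself joined them only with the block (0.73, adjusted p = 0.112 without and 0.00349 with it). Lta was at 6.19, 6.39 and 5.99 in CD49b+ cells, 2.72 ± 0.16 below CD25+ cells (adjusted p = 2.3e-06). NF-kappaB genes were higher for 7 of 17 and lower for 1, and for 3 without either CD25+ replicate 1 or CD49b+ replicate 3, with Bcl3 at 1.18 ± 0.07. Cd81 was higher by 2.54 ± 0.10. MHC class II genes were higher for 7 of 11, with H2-Aa higher by 3.63 ± 0.26 from CD49b+ levels of 6.86, 7.66 and 6.79. Naive and quiescence genes were higher for 11 of 23 and lower for 3. Among them Bach2 was at 6.66, 5.93 and 6.69 in CD49b+ cells and 2.62 ± 0.25 higher in CD25+ cells (adjusted p = 4.79e-05), and Actn1 was higher by 1.67 ± 0.09, while Igfbp4 and Lef1 were not called (0.05 ± 0.13 and 0.41 ± 0.26).

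Of the genes of effector cells, part stood lower in CD25+ than in CD49b+ cells. Of 18 effector transcription factors 9 were lower and the other 9 not called, with a median of -0.43. Of 15 annexins, S100 proteins and galectins 13 were lower and the other 2 not called, with a median of -0.76. Pparg, a lipid-sensing receptor, was at 8.84, 8.84 and 8.91 in CD49b+ cells and at 4.20, 4.74 and 4.97 in CD25+ cells (-4.22 ± 0.16, adjusted p = 2.97e-07). Gzmb was at 9.41, 10.01 and 9.58 in CD49b+ cells, and CD25+ cells, at -3.04 ± 0.19 from them, lay between CD4+ and CD49b+ cells. Of 14 suppressive effector molecules 6 were lower and 3 higher. Il10 was among the higher ones (0.98 ± 0.29, adjusted p = 0.0295), a call lost without CD25+ replicate 1 or 2 or CD49b+ replicate 1 or 3, with adjusted p from 0.0624 to 0.104. Of the 12 genes on the chemokine receptor list, Gpr183, S1pr1 and S1pr4 among them, 2 were higher and 8 lower. Ccr2 was at -3.61 ± 0.37 and Cxcr6 at -1.95 ± 0.38, while Ccr6 and Cxcr5 were higher (1.43 ± 0.15 and 2.88 ± 0.18). Pdlim4 and Hs3st3b1 were lower in CD25+ than in CD49b+ cells by nearly as much as against CD4+ cells, at -4.01 ± 0.21 and -2.59 ± 0.25.

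Mitosis genes were higher in CD49b+ than in CD25+ cells, and the number of them called depended on single arrays. Of 30 genes 24 were lower in CD25+ cells and the other 6 not called, with a median of -1.07, and the replicate block made it 30 of 30. The count was 12 without CD25+ replicate 1, 13 without CD49b+ replicate 2 and 11 without CD49b+ replicate 3. Mki67 was at 10.25, 10.44 and 10.82 in CD49b+ cells (-1.0 ± 0.23, adjusted p = 0.00857). For Ube2c, at 8.96, 9.92 and 10.12 in CD49b+ cells, the adjusted p was 0.0545, and 4.81e-04 with the block. Cdk1 (-0.95) and Birc5 (-1.12), an inhibitor of apoptosis at mitosis, were likewise called only with the block, at 6.63e-04 and 9.52e-05. Of 27 replication genes 4 were lower, no larger a share than the 17.5% of all genes. With the block 10 were lower, beside 2347 of all 11037 genes, and it added Rrm2 (-0.81), Uhrf1 (-0.39), Tk1 (-0.36) and Tyms (-0.49) among others. In both subsets replicate 1 had the lowest and replicate 3 the highest list median of the mitosis genes, 1.06 and 1.90 in CD25+ and 2.31 and 3.36 in CD49b+ cells.

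**Figure D5:**
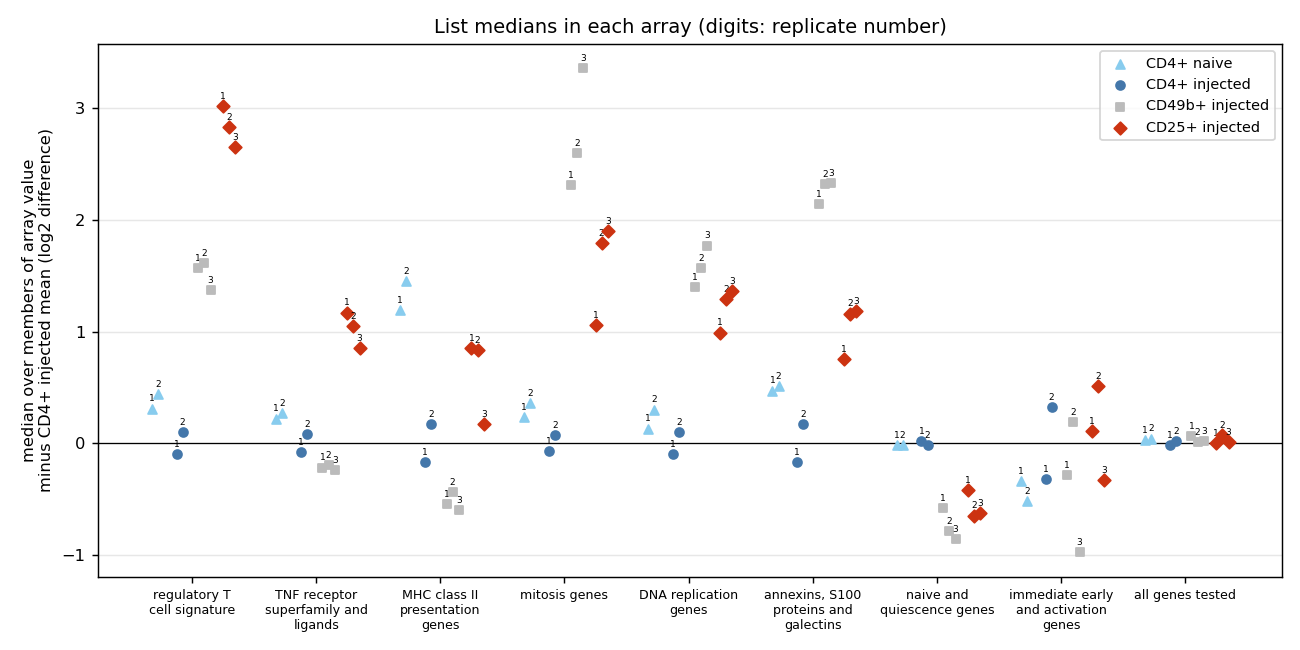
Each point is the median over the tested members of a list of the level in 1 array minus the mean of the CD4+ arrays of injected mice (log2, vertical axis), for 8 lists and for all genes; digits are replicate numbers. The regulatory T cell signature is at 3.02, 2.83 and 2.65 in CD25+ arrays, above all CD49b+ arrays, whereas mitosis genes are at 1.06, 1.79 and 1.90, below the CD49b+ arrays.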

How the data were processed

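Sorted spleen CD4+ T cell populations were profiled on 10 Affymetrix mouse arrays in 4 groups, given by the sample labels. Per the labels' protocols, CD4+ cells were enriched with magnetic beads by depleting other cells, sorted by flow cytometry from pools of mice, and 100 ng of RNA was amplified with a 3' IVT kit, which favours the 3' ends of transcripts. The authors deposited log2 expression values, for which the submitters' processing notes name GCRMA and version 1.2.1 of Affymetrix Expression Console. GCRMA corrects background and normalizes before summarising probes. The sources used here leave unsaid whether the 10 arrays went through it together, so a shift between groups can arise there.

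Of 45037 probe sets other than controls, 28898 had 1 gene symbol, 551 several and 15588 none in the annotation used here. The symbols are those of GEO's array annotation, which can be old, and 28689 probe sets were matched to RefSeq by gene number, which changed 0 symbols. Each of 17097 genes was represented by its probe set with the highest mean over the 10 arrays. The test took 11037 genes that exceeded the array's 50th percentile on 2 or more arrays, and set 6060 aside as dim. Group means were fitted over all 10 arrays with limma 3.58.1 (lmFit, eBayes) in R 4.3.3, two-sided, with Benjamini-Hochberg adjustment over all genes tested in each comparison. The fit was tested on simulated data. No set test was run.

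Members and lists were chosen with earlier results of these data known. Named genes were the 20 highest and 20 lowest called genes without overlap of arrays, passing over gene models, a set of marker genes whatever their values, and up to 6 called members of each list with the largest differences, with uncalled or dim members where a count needed them. Same-numbered CD25+ and CD49b+ arrays had deviations from their group means that correlated at 0.158, 0.366 and 0.641 over genes, so these numbers were taken to pair the samples, a pairing that comes from the data and not from the labels. CD25+ and CD4+ cells share only 2 numbers and were not taken as paired.

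Alternatives were other filters on dim genes, quantile normalization or median centring, an eBayes prior with trend and robust settings, array weights, the mean of the probe sets or every probe set, a 2-fold threshold, only the arrays compared, both CD4+ groups as comparator, the replicate number as a block, and each array left out in turn. The same alternatives for the list counts and for the named genes against CD49b+ cells were added after seeing the data. Promoter windows are those of RefSeq on GRCm38.p6.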

Additional observations from a re-analysis of the deposited data

Results flagged for a closer look

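Among the called members of the gene lists, 19 were called against CD4+ cells of injected mice in CD25+ and in CD49b+ cells in opposite directions by limma. Since both subsets were set against the same CD4+ arrays, a called difference between the subsets follows from this choice and is given as a description. The values below are the levels of CD25+ minus CD49b+ cells on the log2 scale.

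Among regulatory T cell genes these were Plagl1 at 4.01 and Izumo1r at 1.89. Among TNF family genes they were Lta at 2.72, Fas at 1.5, Cd27 at 0.92 and Ltb at 0.83. Genes of antigen presentation and myeloid cells gave 3.63 for H2-Aa, 3.09 for H2-Ob, 1.81 for Cd74, 1.59 for Cybb and 0.95 for Ctss. Cxcr5 was at 2.88, Id3 at 1.57 and Spry1, a feedback inhibitor of receptor kinases, at 1.75. All of these were above CD4+ cells in CD25+ and below them in CD49b+ cells.

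The reverse held for the integrin chain Itgb3 at -1.40, the lysophospholipid receptor S1pr4 at -0.99, the kinase Ikbkb at -0.74, Il9r at -0.65 and the interferon-stimulated Oas3 at -0.59. Of the 19, Cd74, H2-Ob, Spry1 and Oas3 lost their call against CD4+ cells when 1 array was left out, and H2-Aa, H2-Ob and Cd74 were not called against both CD4+ groups together.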

How the results depend on the processing

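Of 187 named genes called against CD4+ cells, 160 kept their call without any 1 of the 5 arrays. The number of higher genes (2297) was 561 with a 2-fold threshold. The number of lower genes (1964) was 4981 with no filter on dim genes, 699 with the 70th percentile, 3057 over every probe set and 150 at 2-fold. Leaving out each array gave 1533 to 2306 higher and 1249 to 1919 lower genes against CD4+ cells, with 1285 and 1249 lower without CD4+ replicate 1 and 2, and 1080 to 1405 higher and 1390 to 1912 lower against CD49b+ cells. Quantile normalization gave 49.5% of calls as higher against 53.9%, and no filter 34.3%. Small uncalled differences changed sign: Cd4 to -0.05 (quantile), -0.20 (mean of probe sets), and -0.04 (both CD4+ groups), Cd3e to 0.08 (centred), Lag3 to 0.03 (quantile) and 0.04 (centred), and Il2 to -0.04 (replicate block) and -0.05 (both CD4+ groups). Leaving out 1 array gave -0.02 to 0.13 for Cd4, -0.08 to 0.11 for Cd3e, -0.17 to 0.06 for Lag3 and -0.06 to 0.10 for Il2. H2-Ob, called at 0.67, was at -0.09 against both CD4+ groups. The cause of these changes was not tested. With the replicate block, 2651 genes were higher and 2072 lower against CD4+ cells, and 1677 and 2347 against CD49b+ cells. Of 487 named genes tested, the block changed 42 calls against CD4+ cells, where 1, Pfkm, was lost (0.29, adjusted p = 0.0598) and 41 were gained, among them Rel (1.21, adjusted p = 0.00112) and Nfkbia (1.02, adjusted p = 0.00732), and 43 against CD49b+ cells, where 0 were lost.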

Other observations

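Over all genes tested, 107 were above CD4+ cells of injected mice in CD25+ and below them in CD49b+ cells, and 55 the reverse, by limma's calls. The examples here lie outside the rule for named genes and were chosen after their values were seen. Ephx1, an epoxide hydrolase of drug metabolism, was at 8.09 and 8.19 in CD4+ cells, at 9.27, 9.26 and 9.16 in CD25+ cells and at 6.04, 6.15 and 5.94 in CD49b+ cells. Lmo4, a LIM-only transcriptional adaptor, was at 7.11 and 7.28, at 9.74, 9.67 and 9.33, and at 6.48, 6.50 and 6.58 in the same order. Igf1r, the receptor for insulin-like growth factor 1, was at 7.02 and 6.99, at 9.15, 8.58 and 8.46, and at 5.78, 5.98 and 6.12. CD25+ cells were above CD49b+ cells by 3.19 ± 0.08 for Ephx1, 3.06 ± 0.11 for Lmo4 and 2.77 ± 0.16 for Igf1r. The choice of genes fixed that the CD4+ level lies between the subsets.

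In the other direction, Bbs9, a component of the ciliary BBSome, was at 5.39 and 5.74 in CD4+ cells, at 4.94, 4.90 and 4.72 in CD25+ cells and at 7.02, 7.12 and 6.98 in CD49b+ cells. Cbfa2t3, a transcriptional corepressor, was at 6.41 and 6.39, at 5.30, 5.27 and 5.46, and at 7.05, 7.06 and 6.86. The differences of CD25+ from CD49b+ cells were -2.19 ± 0.10 and -1.64 ± 0.09. Flt3l, the ligand that expands dendritic cells, was at 7.95 and 8.37 in CD4+ cells, at 7.08, 7.50 and 7.05 in CD25+ cells and at 8.57, 8.92 and 8.46 in CD49b+ cells (-1.44 ± 0.16).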
